A study of Homo sapiens with 6 samples.

Results

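The replication-dependent histone genes were taken as every row of the expression table whose gene name starts with HIST1H, HIST2H, HIST3H or HIST4H. The rule found 73 rows of 32322 gene rows, with 6 rows for the linker histone H1, 16 for H2A, 22 for H2B, 15 for H3 and 14 for H4. Of these, 54 belonged to the HIST1 cluster, 15 to HIST2, 3 to HIST3 and 1 to HIST4, and 9 of the 73 were annotated as pseudogenes. RNA sequencing had been carried out on 3 libraries of cells given DMSO, the solvent, and 3 libraries of cells given 500 nM of compound 28 for 4 h. The series names compound 28 as a degrader of CDK9, and the labels call all cells wild type and give no separate time for DMSO. The sample titles name the cells MDA-MB-231, a much used cell line of triple-negative breast cancer, and nothing in the labels says whether replicates were separate cultures. P-values therefore measure the spread between these libraries, which may be technical.

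Part of the marker genes went against that name. Summed over 26 listed blood cell markers, of which 24 were in the table, the level in CPM, reads scaled to the library total, was 9205 to 9848 with DMSO and 9314 to 9659 with compound 28, and 19 of them exceeded 10 CPM in all 6 libraries. Of 22 listed markers of MDA-MB-231, 20 were in the table, 9 exceeded 10 CPM in all 6 libraries and 4 stayed under 1 CPM in every library, CAV1 and MET among them. Summed over the 20, the level was 2662 to 2711 CPM with DMSO and 3214 to 3442 CPM with compound 28. The cells are therefore called by their title only, and no other cell type is given to them. The source labels of the 6 samples also count upward from the titled line, which was left unresolved. Reads on genes numbered 37186728 to 54830987 per DMSO library and 28505897 to 34062330 per compound 28 library. Across the genes tested with a mean of at least 1 CPM, the lowest and the highest Pearson correlation were 0.985 and 0.993 within DMSO. They were 0.987 and 0.990 within compound 28, and 0.789 and 0.814 between the groups.

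Replication-dependent histone genes supply the bulk of chromatin protein during S phase: H2A, H2B, H3 and H4 form the nucleosome core, and H1 binds the linker DNA. They lie in clusters, carry no introns as a rule, and their messages end at a conserved stem-loop bound by the stem-loop binding protein SLBP rather than in a poly(A) tail. Some of the genes also have polyadenylated transcripts that run past the stem-loop. CDK9 phosphorylates RNA polymerase II as part of P-TEFb, so that paused polymerase moves on, and it has also been linked in human cells to the stem-loop cleavage of histone transcripts. The labels name a stranded mRNA kit, which as background captures RNA through its poly(A) tail, so a row here holds what that capture retained and not the whole histone message pool. Because RNA was bulk, fewer cells in S phase and less histone RNA per cell cannot be told apart.

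The stem-loops below are shown because they are the processing signal of these genes and because the genes listed include the 5 that were lower with compound 28 and 2 that were higher. They were found in GENCODE 29 transcripts, with coordinates in GRCh38, while the deposited counts used GRCh37. The search took only GGYYCT, a loop starting with T, and AGRRCC, with the strands pairing. Y stands for C or T, and R for A or G. A gene with any other stem was counted as having none. Capitals mark the 16 bases of stem and loop, and 5 flanking bases stand on each side in lower case, 5′ to 3′.
HIST4H4, chr12:14770719-14770744, minus strand: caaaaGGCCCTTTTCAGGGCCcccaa
HIST1H2AG, chr6:27133510-27133535, plus strand: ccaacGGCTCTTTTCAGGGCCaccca
HIST2H2BE, chr1:149886183-149886208, minus strand: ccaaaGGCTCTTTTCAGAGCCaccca
HIST2H2BF, chr1:149811880-149811905, minus strand: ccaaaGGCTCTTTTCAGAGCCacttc
HIST1H2AC, chr6:26124664-26124689, plus strand: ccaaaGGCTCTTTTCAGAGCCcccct
HIST1H4J, chr6:27824454-27824479, plus strand: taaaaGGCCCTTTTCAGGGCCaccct
HIST1H2BD, chr6:26158582-26158607, plus strand: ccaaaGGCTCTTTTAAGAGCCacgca
Within the searched pattern, the stem differed between histone classes. All 8 H4 genes with a stem-loop in their transcript model had the stem GGCCCT, as in HIST4H4, which was lower, and HIST1H4J, which was higher. All 7 H2A, 12 H2B and 6 H3 genes with one had the stem GGCTCT. HIST1H2AG was the 1 H2A gene, and HIST2H2BC the 1 H2B gene, whose 3′ strand of the stem read AGGGCC in place of AGAGCC, which leaves a G-U pair in the stem.

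Every one of the 73 rows had at least 1 read in some library, but so did all 32322 gene rows of the table. Having a read was thus a condition of having a row, and 17 further histone symbols of GENCODE 29 had no row. Of the 73 rows, 47 had reads in all 6 libraries, with 57 to 64 rows detected per library. The depth was low: the 73 rows together held 21474 reads over the 6 libraries. Of them, 14 rows had under 10 reads, 46 had under 100 and 6 had 1000 or more. HIST3H2A, an H2A gene of the small HIST3 cluster, and HIST1H2BK, an H2B gene, took 40.7% of all histone reads. With the linker histone gene HIST1H1C, the H2A genes HIST1H2AC and HIST2H2AC and the H4 gene HIST1H4I the share came to 67.0%. Per kilobase of exon, the mean normalized level over the 6 libraries was 1642 for HIST1H2BK, 832 for HIST3H2A, 486 for HIST1H1C and 484 for HIST2H2AC, against a median of 13.9 over the 73 rows. Exon lengths came from GENCODE 29, whose models of HIST1H2BK, HIST1H1C and HIST2H2AC hold coding sequence alone, so those levels are per kilobase of coding sequence.

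**Figure D1:**
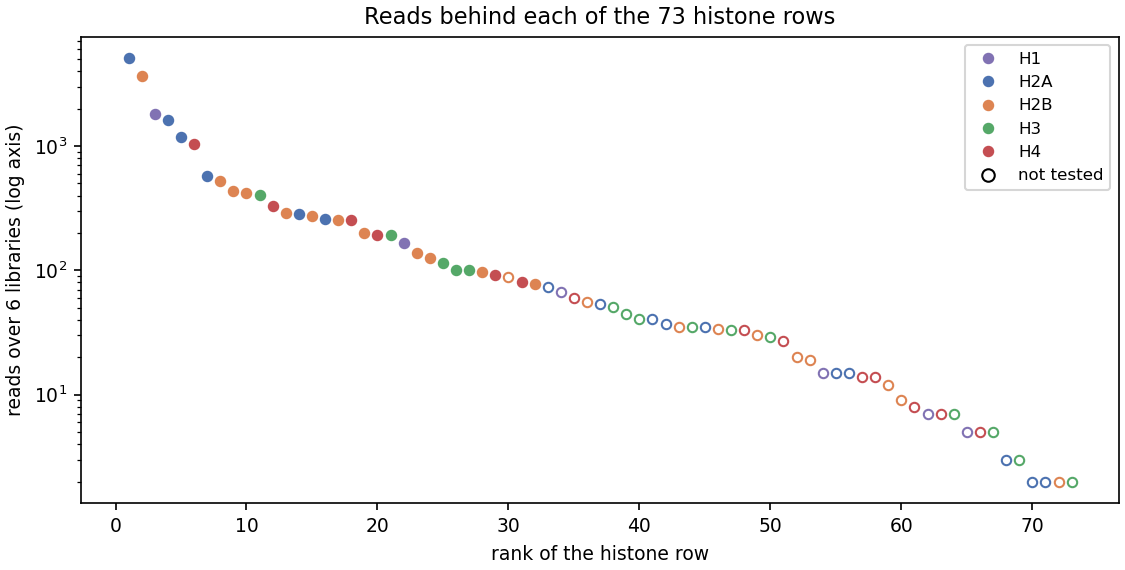
Reads over all 6 libraries for each histone row, ordered by rank on the x axis, on a log y axis, coloured by class, with open points for rows too low to test. The top 2 points are HIST3H2A and HIST1H2BK, and 42 rows are open.

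Histone rows held a very small share of the gene reads. The share was 0.0108%, 0.0102% and 0.00864% in DMSO replicates 1, 2 and 3, and 0.00829%, 0.00821% and 0.00781% in compound 28 replicates 1, 2 and 3. Within a library the 95% Wilson intervals, which cover counting error only, were narrow, from 0.0105% to 0.0111% in DMSO replicate 1 and from 0.00749% to 0.00814% in compound 28 replicate 3. The mean was 0.00986 ± 0.00111% (SD, n = 3) with DMSO and 0.00810 ± 0.000255% with compound 28, and the groups did not overlap. The authors' normalized counts gave the opposite order, with a sum of 3122 ± 332 with DMSO and 3513 ± 49.7 with compound 28 (SD, n = 3). So no direction of the histone total was independent of the scaling. For comparison, 13 histone variant genes in the table whose messages are polyadenylated, such as H2AFZ and H3F3B, summed to 2619 ± 43.2 CPM with DMSO and 1514 ± 37.3 CPM with compound 28, against 98.6 ± 11.1 CPM and 81.0 ± 2.55 CPM for the 73 rows.

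How the histone reads were divided among the classes does not depend on scaling between libraries. H2A held 46.8 ± 2.14% of them with DMSO and 36.1 ± 1.84% with compound 28 (SD, n = 3). H1 held 7.92 ± 0.497% and 13.1 ± 1.20%, and H2B held 29.9 ± 1.58% and 34.9 ± 1.15%. In these 3 classes the libraries of the groups did not overlap. H3, at 5.48 ± 0.574% and 5.31 ± 1.76%, and H4, at 9.89 ± 1.05% and 10.6 ± 1.08%, overlapped. A share that falls in 1 class raises the others, and no test was made of these sums.

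**Figure D2:**
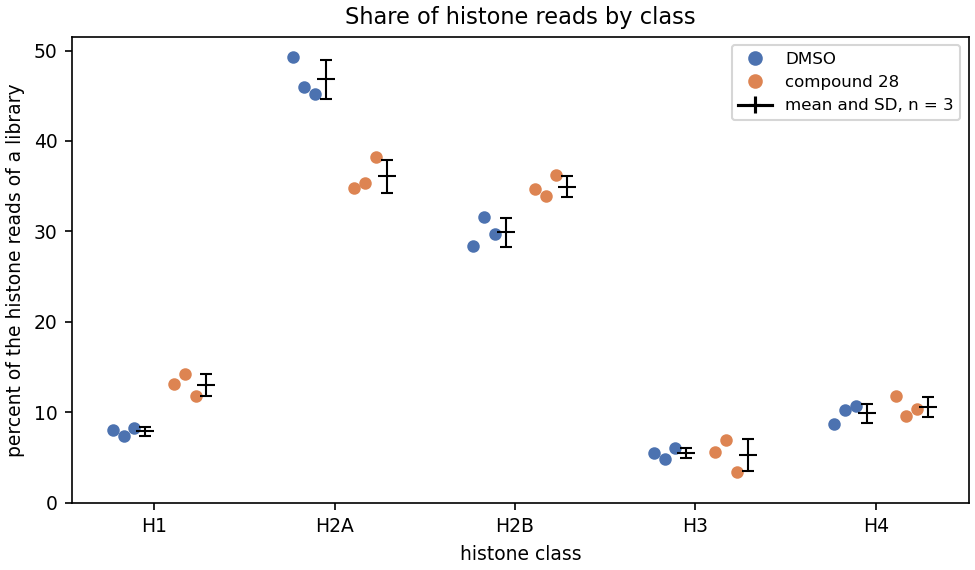
Percent of each library's histone reads on the 5 classes, 1 point per library, with the mean and SD of 3 libraries in black. H2A is lower and H1 and H2B are higher in all 3 compound 28 libraries than in any DMSO library, while H3 and H4 overlap.

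These class shares rested on few genes. HIST1H1C gave 87.5% of the H1 reads, HIST3H2A 54.98% of the H2A reads and HIST1H2BK 53.7% of the H2B reads. Within H2B, HIST1H2BK made up 45.4% of the reads with DMSO and 67.1% with compound 28. With the most abundant gene of each class left out, the H2B share moved the other way, by -4.98 percentage points in place of 5.03, and the H2A difference shrank from -10.7 to -1.22 points.

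Single genes were tested with limma on log2(normalized count + 1), with Benjamini-Hochberg adjustment over all 18278 genes tested and a threshold of 0.05. Of the 73 rows, 31 had enough reads to be tested, 2 of them pseudogenes. Most genes changed: 72.8% of all genes tested passed, 35.5% higher and 37.3% lower. Of the 31 histone genes 12 passed, 7 higher and 5 lower, and the median log2 change was -0.09 against -0.03 over all genes. At a mean normalized count under 100 the background was 63.3%, and 8 of 25 histone genes passed. At 100 or more it was 77.9%, and 4 of 6 passed. The libraries of the groups did not overlap in 14 of the 31 histone genes, and in 75.7% of all genes tested. The filter kept genes by library, so HIST1H2BL was tested with 78 reads while HIST3H2BB, with 88 reads, was not. In the authors' deposited table, where 44.9% of all gene rows passed an adjusted p of 0.05, 7 histone rows were higher and 5 lower, and 11 calls were shared with the present fit. The authors' deposited table did not call HIST2H2AC (adjusted p = 0.0737) and called the pseudogene HIST1H2BPS3 higher, which was too low to be tested here and is named after its value was seen.

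All rises depended on the scale. The deposited factors set the median gene near 0, and scaling to mitochondrially encoded mRNAs moved that median to -1.47, and scaling to ribosomal protein mRNAs moved it to -1.13. On those scales 0 histone genes were called higher, and 23 and 19 were called lower, out of 31. Directions below are given on the deposited scale, that is, relative to the median gene.

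H1 was represented by 2 tested genes. HIST1H1C, which encodes the linker histone H1.2, had normalized counts of 232, 193 and 221 with DMSO and 414, 438 and 373 with compound 28. All 3 compound 28 libraries lay above all 3 DMSO libraries. The log2 change was 0.92 (SE 0.15, limma adjusted p = 0.0002), and it became -0.53 with mitochondrial and -0.18 with ribosomal protein scaling. HIST1H1E, which encodes H1.4, had 25.5, 24.6 and 5.17 with DMSO and 35.3, 49.1 and 23.3 with compound 28. The ranges overlapped and it was not called (log2 change 1.13, SE 0.57, limma adjusted p = 0.0941). HIST1H1B, which encodes H1.5, had 67 reads in all and was not tested.

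Among 6 tested H2A genes, 2 were higher, 2 lower and 2 not called. The most abundant one was HIST3H2A, with 958, 807 and 676 normalized counts with DMSO and 683, 634 and 712 with compound 28. Its groups overlapped through DMSO replicate 3, and it was not called (log2 change -0.25, SE 0.14, limma adjusted p = 0.116). Without that library the change was -0.38 and passed (limma adjusted p = 0.0122), and it was also called lower with library sizes only (-0.71), mitochondrial (-1.71) and ribosomal protein scaling (-1.36). Over the 19 alternatives the adjusted p ran from 5.94e-07 to 0.742.

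HIST1H2AG had the largest change of the class. Its normalized counts were 120, 117 and 109 with DMSO and 44.1, 22.6 and 23.3 with compound 28, so that no compound 28 library reached a DMSO one. The log2 change was -1.97 (SE 0.30, limma adjusted p = 0.0002), a 3.93-fold decrease. HIST1H2AC had 305, 286 and 226 with DMSO and 167, 167 and 207 with compound 28. It was lower, with a smaller gap between the groups (log2 change -0.59, SE 0.18, limma adjusted p = 0.0124), and it lost its call without DMSO replicate 1 or 2 or with upper-quartile factors (limma adjusted p = 0.0508, 0.0518 and 0.0754).

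HIST1H2AJ was higher, with 38.2, 35.6 and 20.7 normalized counts with DMSO and 57.3, 57.9 and 80.8 with compound 28 (log2 change 1.06, SE 0.32, limma adjusted p = 0.013). Of the 50-base windows of its coding sequence, 84.5% also occur in another histone gene, so its count depends on how shared reads were assigned. HIST2H2AC had 178, 144 and 165 with DMSO and 213, 233 and 201 with compound 28. It passed narrowly (log2 change 0.41, SE 0.17, limma adjusted p = 0.0475), and the call was lost under 10 of 19 alternatives while the sign turned under 3 more. Both genes fell below 0 on the mitochondrial and ribosomal protein scales.

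H2B gave 12 tested genes, of which 2 were higher, 2 lower and 8 not called, with a median of -0.48. HIST1H2BK rose most clearly, from 421, 450 and 409 normalized counts with DMSO to 821, 785 and 867 with compound 28. It had the smallest adjusted p of the 12 called genes. The log2 change was 0.95 (SE 0.11, limma adjusted p = 2.09e-05), a 1.93-fold increase, and it became -0.51 and -0.16 on the mitochondrial and ribosomal protein scales. HIST1H2BD had 57.3, 59.6 and 37.9 with DMSO and 86.7, 109 and 65.3 with compound 28. It passed (log2 change 0.74, SE 0.29, limma adjusted p = 0.0406), but its gene body overlaps other annotated genes, and the higher call was lost under 8 of 19 alternatives, 2 of which turned its sign.

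HIST2H2BE was lower, with 112, 113 and 69.8 normalized counts with DMSO and 36.7, 39.0 and 24.9 with compound 28. The lowest DMSO library had more than the highest compound 28 library (log2 change -1.51, SE 0.30, limma adjusted p = 0.0011). HIST2H2BF had 86.3, 77.7 and 61.2 with DMSO and 52.9, 44.0 and 34.2 with compound 28 (log2 change -0.77, SE 0.28, limma adjusted p = 0.0276). It overlaps FCGR1A, a gene for an immunoglobulin receptor of myeloid cells, on the annotation, and its call was lost without DMSO replicate 1 or 2, without compound 28 replicate 2 or 3, and with upper-quartile factors.

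No H3 gene passed in limma among 5 tested, and the median log2 change was 0.00. By unadjusted p under 0.05 the limma count was 1, edgeR and DESeq2 called 0, and upper-quartile factors gave 1 higher. With mitochondrial and with ribosomal protein scaling 4 of the 5 were called lower. HIST1H3H had 70.1, 53.1 and 75.0 normalized counts with DMSO and 66.1, 70.4 and 23.3 with compound 28, so that only compound 28 replicate 3 lay below the DMSO range. HIST1H3E was not called either (log2 change -0.38, SE 0.41, limma adjusted p = 0.424). HIST1H3C had 10.4, 8.42 and 14.7 with DMSO and 19.1, 37.7 and 15.5 with compound 28. Its groups did not overlap, yet the change of 0.98 (SE 0.44) missed the threshold (limma adjusted p = 0.0662). Without compound 28 replicate 3 or with upper-quartile factors it passed (limma adjusted p = 0.0385 and 0.0359), and the adjusted p reached 0.903 at its highest over the alternatives.

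Among the 6 tested H4 genes, 2 were higher, 1 lower and 3 not called. HIST4H4, which stands alone outside the other clusters, had the largest fall of all tested histone genes. Its normalized counts were 52.7, 72.5 and 82.7 with DMSO and 8.81, 10.1 and 21.8 with compound 28. The lowest DMSO library lay above the highest compound 28 library (log2 change -2.35, SE 0.39, limma adjusted p = 0.0003), a 5.11-fold decrease on the log2(count + 1) scale. HIST4H4, HIST1H2AG and HIST2H2BE were the 3 called members that kept their call and sign under all 19 alternatives. The larger shifts of scale among these were downward. They put the median gene at -0.48 (library sizes only), -1.13 (ribosomal protein mRNAs) and -1.47 (mitochondrial mRNAs), against 0.16 with upper-quartile factors. A fall could therefore keep its call more easily than a rise.

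HIST1H4J had 22.0, 16.8 and 22.4 normalized counts with DMSO and 44.1, 45.3 and 59.1 with compound 28 (log2 change 1.24, SE 0.31, limma adjusted p = 0.0043). HIST1H4K had 10.4, 5.18 and 5.17 with DMSO and 17.6, 21.4 and 31.1 with compound 28 (log2 change 1.65, SE 0.44, limma adjusted p = 0.0061). The coding sequences of the pair are 100% identical, so a read wholly inside them fits both genes. Whether such reads entered either count or a separate row for reads not aligned uniquely is not recorded. The 2 rises therefore cannot be taken as independent observations. Mitochondrial scaling turned HIST1H4J to -0.18 and left HIST1H4K at 0.31, not called. HIST1H4I, the most abundant H4 gene, had 140, 155 and 133 with DMSO and 242, 151 and 177 with compound 28. It overlapped through compound 28 replicate 2 and was not called (log2 change 0.39, SE 0.21, limma adjusted p = 0.117). HIST1H4H stayed close between groups, with a log2 change of -0.09 (SE 0.28, limma adjusted p = 0.775).

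**Figure D3:**
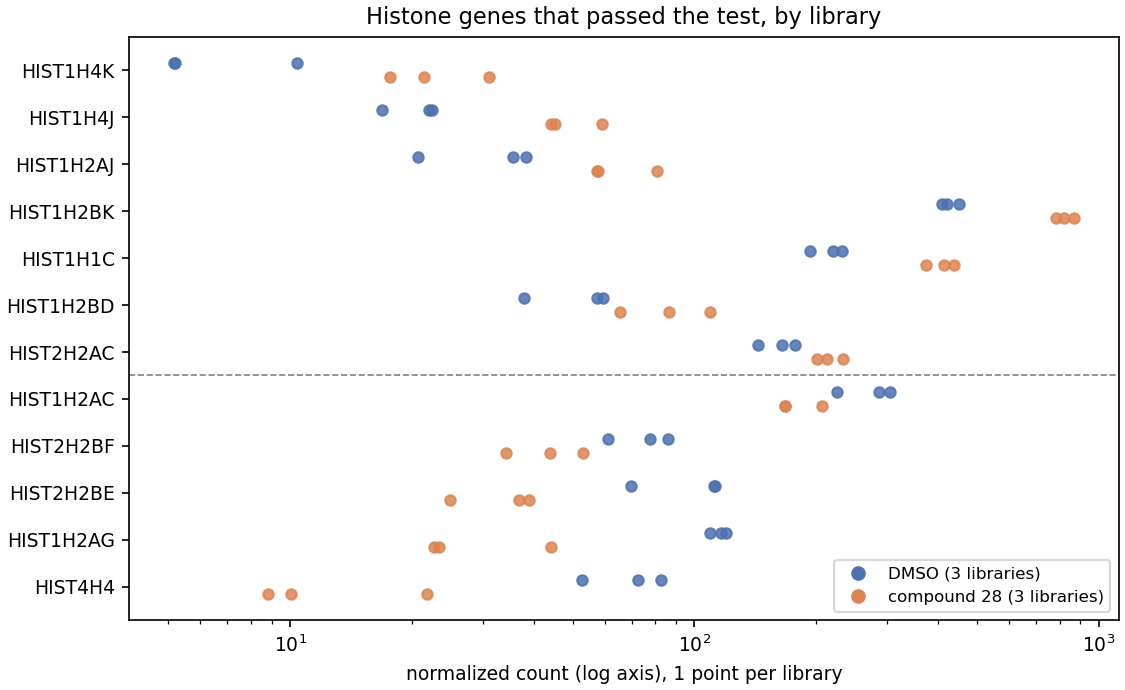
Normalized counts on a log x axis for the 12 histone genes that passed the test, 1 point per library, with genes higher with compound 28 above the dashed line and genes lower below it. The groups do not overlap in any of the 12 genes; the rises become falls on the mitochondrial scale except that of HIST1H4K.

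Library differences within a group also touched these genes. DMSO replicate 3 was the lowest DMSO library in 19 of the 31 tested histone genes and in 38.3% of all genes tested. Compound 28 replicate 3 was the lowest of its group in 17 of 31, against 33.2% of all genes. The summed level of 25 listed S phase genes was highest in DMSO replicate 3, at 4168 CPM against 3158 and 3283 CPM, the library with the lowest histone share of the DMSO group. The part of these differences in the results was not tested.

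The genes were also grouped by how their 3′ end is annotated, a grouping made after the values were seen and therefore given without a test. In GENCODE 29, 24 of the 73 genes had a transcript that ends over 100 bases past the stem-loop, and 9 ended at it. The other 40 had no stem-loop of the searched pattern in their model. In 28 of those 40 the model holds coding sequence alone. Of the 15 tested genes annotated past the stem-loop, 0 were higher and 5 lower, with a median log2 change of -0.44. Of the 16 other tested genes, 7 were higher and 0 lower, with a median of 0.83. Over all genes tested 35.5% were higher and 37.3% lower, so the counts of 5 of 15 lower and 7 of 16 higher lie near the background. Unadjusted p under 0.05 in limma gave 0 higher and 5 lower past the stem-loop and 8 higher and 0 lower among the others, and edgeR and DESeq2 gave 0 higher past the stem-loop and 0 lower among the others. The difference between the medians was -1.27 and ran from -1.47 to -1.01 over 19 alternatives. The scalings among them shift all genes together, so they could hardly move this difference and are no check of it. The counts were less steady: upper-quartile factors gave 1 higher gene annotated past the stem-loop, and mitochondrial scaling gave 8 lower genes among the others.

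In the 5 lower genes the bases after the stem-loop were 1761 in HIST1H2AG, 1510 in HIST4H4, 1729 in HIST2H2BE, 1479 in HIST2H2BF and 1128 in HIST1H2AC. Tested genes with tails of such length or longer were also not called: HIST2H2BC had 5804 bases, HIST1H3E 1862, HIST1H4H 1655 and HIST1H2BH 1640. HIST1H4J ended 6 bases after its stem-loop and HIST1H2BD 39 bases after it. The other 5 higher genes, HIST1H1C, HIST1H2BK, HIST2H2AC, HIST1H2AJ and HIST1H4K, had models of the coding sequence alone, so the annotation does not say where their transcripts end. The most abundant genes annotated past the stem-loop, HIST3H2A with 390 bases and HIST1H4I with 212 bases after it, were not called.

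Shares within a library, which need no scaling between libraries, were summed over the same groups. They hold the same reads under a grouping made after the values were seen, so they are no separate support for the split. Genes annotated past the stem-loop took 62.6%, 62.8% and 61.3% of the histone reads in DMSO replicates 1 to 3 and 43.3%, 38.7% and 42.9% in compound 28 replicates 1 to 3. The group means were 62.2 ± 0.797% and 41.6 ± 2.56% (SD, n = 3), with no overlap. Leaving out HIST3H2A and HIST1H2BK gave 60.2 ± 1.97% and 39.1 ± 3.93%. Every gene called lower stayed in those shares, so they are no separate check either. Gene-level counts do not show where in a transcript a read lay, so read-through past the stem-loop itself was not measured.

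**Figure D4:**
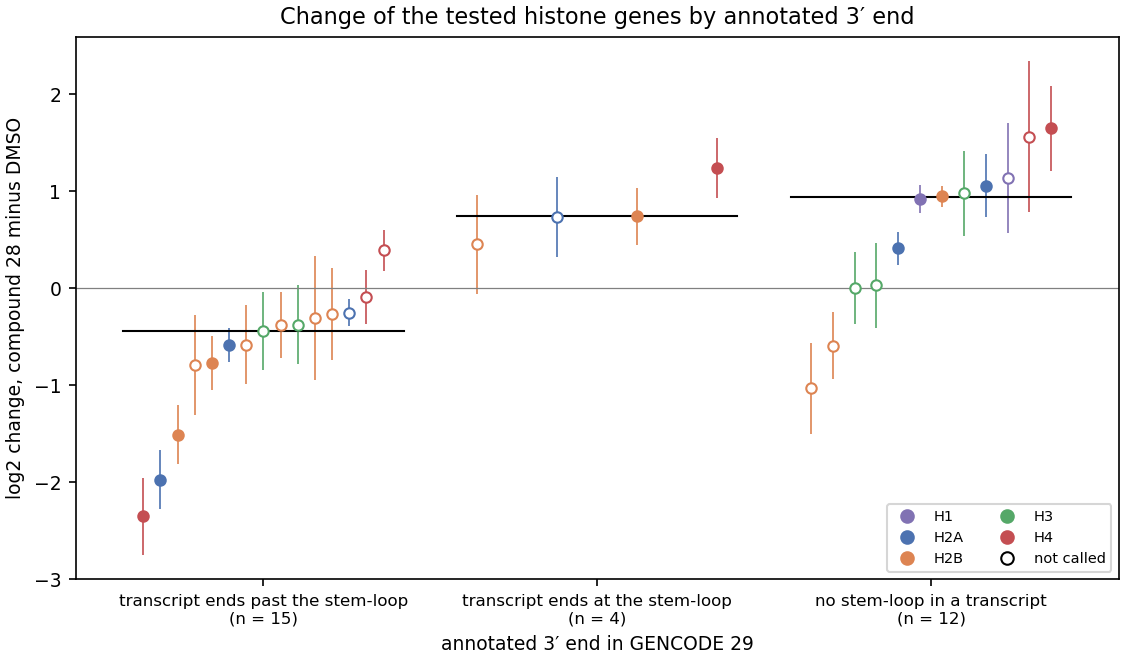
Log2 change with its standard error for the 31 tested histone genes, grouped by annotated 3′ end, coloured by class, with open points for genes not called and a black line at each group's median. Genes with a transcript ending past the stem-loop have a median of -0.44 and the filled points there lie below 0. On the mitochondrial scale the filled points of the other groups would also move below 0, except that of HIST1H4K.

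Many H2A and H2B genes sit head to head and share the stretch between their starts. The annotation gave 13 such pairs of table rows with 123 to 953 bases between them, 12 of them an H2A with an H2B gene, and in 3 both partners were tested. The ratio of reads, H2A over H2B, is free of scaling between libraries. For HIST2H2AC over HIST2H2BE it was 1.59, 1.28 and 2.36 with DMSO and 5.80, 5.97 and 8.06 with compound 28. The groups were fully apart, with means of 1.74 ± 0.557 and 6.61 ± 1.26 (SD, n = 3; exact two-sided permutation p = 0.1, the smallest that 3 against 3 allows, adjusted p = 0.3 over 3 pairs). HIST1H2AG over HIST1H2BJ went the other way in its means, 3.38 ± 0.568 and 1.90 ± 0.951, with overlap (exact permutation p = 0.2). HIST1H2AC over HIST1H2BC gave 12.4 ± 6.19 and 15.97 ± 10.9 (exact permutation p = 0.6).

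**Figure D5:**
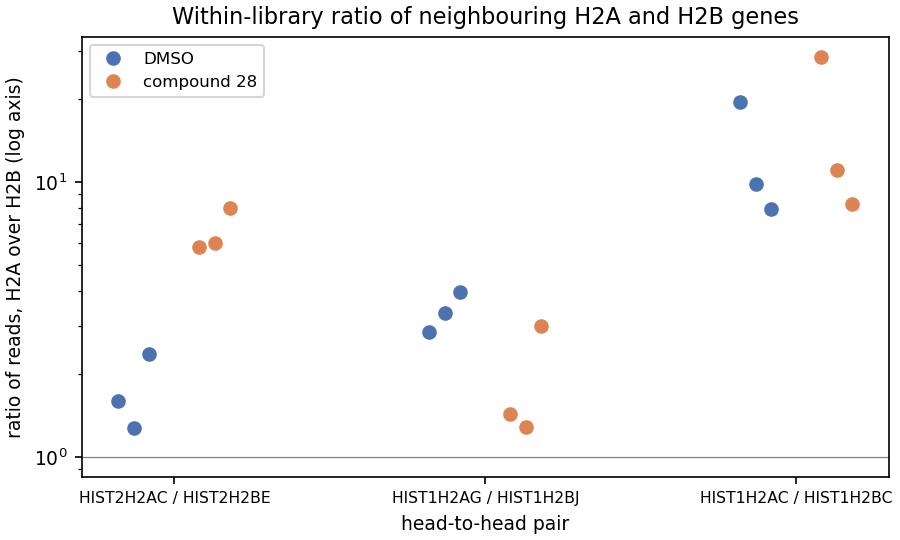
Ratio of reads on the H2A gene to reads on the H2B gene of 3 head-to-head pairs, 1 point per library, on a log y axis with a line at 1. Only the pair HIST2H2AC and HIST2H2BE has all 3 compound 28 libraries above all 3 DMSO libraries.

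Partners of other pairs differed in their reads. HIST1H2BK had 3638 reads over all libraries and its neighbour HIST1H2AH had 37, and HIST3H2A had 5112 while HIST3H2BB had 88. These are reads retained by the library kit, and whether the partners differ in transcription was not measured.

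HIST1H2BK and HIST2H2BE, H2B genes that moved in opposite directions on the deposited scale, carry the same promoter element at nearly the same distance. Their 250 bases upstream of the annotated start are shown for that reason, from the RefSeq promoter table for GRCh38.p14, with the octamer ATTTGCAT in capitals, an element bound by OCT1.
HIST1H2BK, chr6:27146859-27147108, minus strand: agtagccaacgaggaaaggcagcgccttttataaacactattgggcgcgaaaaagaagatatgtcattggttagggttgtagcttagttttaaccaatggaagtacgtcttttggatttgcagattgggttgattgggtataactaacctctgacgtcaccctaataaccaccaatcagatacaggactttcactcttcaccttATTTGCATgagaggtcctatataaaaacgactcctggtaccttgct
HIST2H2BE, chr1:149886683-149886932, minus strand: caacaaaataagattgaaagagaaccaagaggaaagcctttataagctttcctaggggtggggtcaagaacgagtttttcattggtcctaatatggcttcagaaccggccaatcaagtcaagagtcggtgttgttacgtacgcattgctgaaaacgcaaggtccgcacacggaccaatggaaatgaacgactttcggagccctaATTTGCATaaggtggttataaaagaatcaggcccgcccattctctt
The octamer began 46 bases before the start of HIST2H2BE and before the start of HIST1H2BK used here, and 49 bases before the other annotated start of HIST1H2BK. The promoter table matched 59 of the 73 genes, by symbol or synonym and by overlap with the GENCODE gene. The motifs were searched on both strands over 250 bases before and 50 bases after the start, and TATAAA can share end letters with AAACACA, and CCAAT with the octamer. The octamer was found in 13 of 17 H2B, 9 of 13 H2A, 1 of 12 H3 and 0 of 5 H1 and 12 H4 genes, against 2.19% of 27305 genes. The sequence AAACACA, known as the H1 box, was found in 5 of 5 H1 genes, 1 of 13 H2A, 2 of 12 H3 and 0 H2B and H4 genes, against 6.94%. CCAAT was found in every H1, H2A, H2B and H3 gene matched and in 3 of 12 H4 genes, against 39.7%. TATAAA was found in 3 of 5 H1, 11 of 13 H2A, 11 of 17 H2B, 10 of 12 H3 and 6 of 12 H4 genes, against 14.0%. A match describes the letters in the window and not the binding of a factor.

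Near-identical copies limit how far single rows can be read. The median identity of coding sequences between members of a class was 68.2% in H1, 85% in H2A, 88.4% in H2B, 85.3% in H3 and 83.5% in H4, and 1 H2A, 1 H3 and 2 H4 pairs were identical. Reads listed as not aligned uniquely made up 11.2 ± 0.278% of all reads with DMSO and 20.8 ± 3.96% with compound 28 (SD, n = 3). Which genes those reads came from is not recorded, and their part in the histone counts was not tested. The strand setting of the counting was not given in the sources used here, so reads of overlapping genes cannot be told apart.

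Lists of genes around histone messages are read against the 35.5% higher and 37.3% lower of all genes tested, with a median of -0.03. Of 26 tested genes for histone transcription and 3′ end formation, 16 were lower and 4 higher, with a median log2 change of -0.60. NPAT, the coactivator of histone genes in S phase, had normalized counts of 741 ± 116 with DMSO and 444 ± 12.9 with compound 28 (SD, n = 3; log2 change -0.72, limma adjusted p = 0.0006). CSTF2T, a cleavage stimulation factor subunit, had the largest fall, from 2045 ± 250 to 494 ± 55.3 (log2 change -2.04, limma adjusted p = 2.62e-07). CPSF1, a subunit of the polyadenylation specificity factor, was highest among the rises (log2 change 0.83, limma adjusted p = 2.28e-05), which became -0.63 on the mitochondrial scale. SLBP itself, at 3598 ± 326 and 3133 ± 189, was not called (log2 change -0.20, limma adjusted p = 0.0792), and was called lower when library sizes alone, mitochondrial or ribosomal protein mRNAs set the scale.

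Of 16 tested genes for histone message decay, 9 were higher and 5 lower on the deposited scale, beside 35.5% and 37.3% of all genes, and with mitochondrial scaling 1 was higher and 14 were lower. CTIF, a factor of cap-dependent translation linked to this decay, rose by 1.80 (limma adjusted p = 1.06e-07), and it was higher under all 19 alternatives. DBR1, the lariat debranching enzyme, which was listed with this group, fell by 2.41 (limma adjusted p = 3.87e-07). Among 11 tested polyadenylated histone variants, 8 were lower and 2 higher, with a median of -0.79, beside 37.3% and 35.5% of all genes. CENPA, the centromeric H3 variant, went from 1384 ± 132 to 321 ± 35.1 (log2 change -2.11, limma adjusted p = 2.41e-07). H3F3A, which encodes H3.3, went from 9143 ± 592 to 15530 ± 268 (log2 change 0.77, limma adjusted p = 1.24e-05), and turned to -0.69 on the mitochondrial scale.

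Of 19 tested histone chaperone genes, 7 were higher and 7 lower, near the 35.5% and 37.3% of all genes. ATRX, a remodeller that deposits H3.3 with DAXX, had the largest rise (log2 change 0.90, limma adjusted p = 5.33e-05), reversed to -0.56 with mitochondrial scaling. DAXX had the largest fall (log2 change -3.30, limma adjusted p = 0.0015), with 40.5, 24.6 and 217 normalized counts with DMSO and 5.88, 7.55 and 3.11 with compound 28. DMSO replicate 3 carried much of it, and without that library the change was -2.39 (limma adjusted p = 0.0022). Of 25 tested S phase genes, 14 were lower and 1 higher, with a median of -0.42, beside 37.3% and 35.5% of all genes. RRM2, a ribonucleotide reductase subunit, fell by 2.48 on the log2 scale (limma adjusted p = 2.66e-06), and the endonuclease gene FEN1 was the 1 higher gene (log2 change 0.62, limma adjusted p = 7.86e-05), reversed to -0.84 with mitochondrial scaling. CDK9 itself was measured as RNA and went from 2494 ± 242 to 3156 ± 189 (log2 change 0.34, limma adjusted p = 0.0085), a direction that turned when library sizes alone, mitochondrial or ribosomal protein mRNAs set the scale. The compound acts on the protein, which RNA does not measure.

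Other RNAs that carry no poly(A) tail were read beside the histone rows. Of 25 listed, 13 were in the table and 5 were tested, and all 5 were higher on the deposited scale, beside 35.5% of all genes. RNU5A-1 entered the test through its compound 28 reads alone, so it could only come out higher. The remaining rows were too low to test, so 5 of 5 is not a fair comparison with that background and is no check of the kit. Summed over the 13, the groups overlapped, with 1883, 1907 and 1118 CPM in the DMSO libraries. The compound 28 libraries had 1871, 5687 and 2090 CPM. Of the 13, only 1 exceeded 10 CPM in all 6 libraries and 9 stayed under 1 CPM in every library, so these sums rest on few rows. RN7SK, the RNA that holds P-TEFb inactive, had normalized counts of 181 ± 65.9 and 902 ± 143 (log2 change 2.38, limma adjusted p = 1.52e-05). RNU5A-1, a spliceosomal RNA, had the largest fitted change, with 0, 1 and 1 reads with DMSO and 19, 26 and 14 reads with compound 28. Its fitted log2 change of 4.27 (limma adjusted p = 2.05e-05) depends on the pseudocount and is no bound; it ran from 2.55 with a pseudocount of 5 to 5.91 with DESeq2. RN7SK, RNU5A-1 and SNORD3A were higher on the mitochondrial and ribosomal protein scales too. RN7SL2 turned to -0.19 on the mitochondrial scale, and RMRP, at 0.11 there, was not called. With library sizes only, RN7SL2 and RMRP were not called either (limma adjusted p = 0.0653 and 0.0607). Whether the amount of RNA without a tail that entered the libraries differed between the groups was not tested.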

How the data were processed

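Per the labels, total RNA was made into libraries with a stranded mRNA kit. Per the submitters' processing notes, the tools included HISAT2, HTSeq, fastp, SAMtools and StringTie, with the build GRCh37 (hg19) and no tool versions. The deposited table gives normalized counts (a signal: reads divided by 1 factor per library), a base mean signal, a log2 fold change, a test score and p-values from the authors' own comparison. All values, 100% of them, were whole multiples of 1 read within 0.01 read, so reads were recovered. The factors equal median-of-ratios factors. The 5 rows that name no gene held 30.4% to 32.8% of reads with DMSO and 40.4% to 46.9% with compound 28, and were left out of library sizes and tests.

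Genes passing edgeR's filterByExpr on reads were tested with limma 3.58.1 (limma-trend) on log2(normalized count + 1), without a replicate block, with Benjamini-Hochberg adjustment. edgeR 4.0.16 (quasi-likelihood) on recovered reads called 6385 genes higher and 6893 lower, and DESeq2 1.42.0 was a further alternative. The fit was tested on simulated data. Other alternatives were scalings, pseudocounts of 0.5 and 5, filters and leaving out each library. Named genes were called members, the 3 most abundant members and the largest tested change of each class, the largest called rise and fall of each list, and SLBP, NPAT and CDK9. Members, lists and tests were chosen with earlier results of these data known. Annotation came from GENCODE 29, which matched 95.8% of gene rows by symbol. The 17 histone symbols of that annotation without a row in the table had no counts to analyse. The coding genes among them entered the comparison of coding sequences only. Promoters came from RefSeq.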

Additional observations from a re-analysis of the deposited data

Results flagged for a closer look

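The row for reads whose alignment is not unique, which enters no comparison of genes, held 20.8 ± 3.96% of all reads in the compound 28 libraries against 11.2 ± 0.278% in the DMSO libraries (SD, n = 3). It was picked out as a signal outside the gene counts that exceeds the control level. Its lowest compound 28 library, at 18.4%, lay above its highest DMSO library, at 11.5%. Near-identical histone genes such as HIST1H4J and HIST1H4K can lose reads to this row, and how many they lost was not tested.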

How the results depend on the processing

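Scaling decided most counts. Over all genes, main counts of 6487 higher and 6813 lower became 4218 higher with library sizes only, 1810 higher and 13885 lower with mitochondrial scaling, and 2245 higher and 12397 lower with ribosomal protein scaling. The 7 higher histone genes became 4, 0 and 0 on those scales, and the 5 lower became 10, 23 and 19, and 3 with upper-quartile factors. With each library left out in turn, histone genes higher ran from 5 to 8 and lower from 3 to 7, all genes higher from 6030 to 6511 and lower from 6205 to 6654.

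Signs turned for single genes, given as the log2 change with mitochondrial and then ribosomal protein scaling. They were -0.53 and -0.18 for HIST1H1C, -1.04 and -0.69 for HIST2H2AC, -0.37 and -0.026 for HIST1H2AJ, -0.51 and -0.16 for HIST1H2BK, -0.69 and -0.35 for HIST1H2BD, and -1.06 and -0.71 for HIST1H4I. Outside the clusters they were -0.63 and -0.28 for CPSF1, -0.69 and -0.34 for H3F3A, -0.56 and -0.21 for ATRX, -0.84 and -0.49 for FEN1, and -1.11 and -0.77 for CDK9. HIST1H4J turned only with mitochondrial scaling, to -0.18. With library sizes only, HIST2H2AC gave -0.040 and CDK9 -0.11. These turns follow from the construction of the scales, which shift all genes together.

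Without the most abundant gene of each class, the class share differences were 1.62 points for H1, -1.22 for H2A, -4.98 for H2B, 2.59 for H3 and 1.98 for H4. With each library left out they ran from 4.57 to 5.76 for H1, -11.7 to -9.47 for H2A, 4.28 to 5.86 for H2B, -0.96 to 0.78 for H3 and 0.0985 to 1.17 for H4. The ratio of histone shares, compound 28 over DMSO, was 0.821, from 0.773 to 0.862 with a library left out, 0.687 with all rows in the denominator and 1.13 with normalized counts, the last chosen after seeing the data. The difference of medians by annotated 3′ end, also chosen after seeing the data, ran from -1.47 to -1.09 with a library left out.

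Replicate numbers did not pair the samples: correlations of same-numbered deviations were -0.0236, 0.0389 and 0.0665, all at or under 0.1, and not every library correlated best with its own number. With the replicate block, 8 histone genes were higher and 6 lower, and over all genes 6511 higher and 6769 lower. Depth limited the rest: 42 rows were too low to test.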
